A study of Homo sapiens with 6 samples.

Results

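The genes described are DACH1 and 7 genes of its SIX-family and EYA-family partners, SIX2, SIX4, SIX5, EYA1, EYA2, EYA3 and EYA4, which are 8 of 18132 genes measured. They were taken by name, with every probe set whose platform annotation gives one of these symbols, which are 24 of 49293 probe sets. Huh7, an established human hepatocellular carcinoma cell line, was measured on 6 Affymetrix arrays while in logarithmic growth. The cells labelled KCa3.1 silenced (genotype KCa3.1 knockdown) gave 3 arrays and the control Huh7 cells gave 3. How the channel was silenced, and whether the replicates were separate cultures, is not stated in the labels, so that p-values measure only the spread between these arrays, which may be technical. The question of the study is which transcripts differ when KCa3.1, a calcium-activated potassium channel encoded by KCNN4, is depleted.

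DACH1 was selected on its measured difference between these groups, one of the largest in the series, and its partners were chosen by family membership with results of the same contrast known. The values of the 8 genes are therefore a description, without a test.

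DACH1 is a nuclear protein related to Drosophila dachshund that binds DNA and recruits corepressors to genes. SIX-family proteins are homeodomain transcription factors, and EYA proteins are their coactivators, which also carry a protein phosphatase domain. In the Drosophila eye and in vertebrate organs such as kidney, muscle and ear, the 3 families act as 1 regulatory network, in which EYA turns SIX-family factors into activators and DACH proteins oppose or modify that output. In several carcinomas DACH1 has been described as a repressor of proliferation genes.

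The promoter of DACH1 is shown because that gene carries the largest difference among the 8, with those of SIX4 and EYA3 for comparison. Promoter windows of 5 of the 8 genes (DACH1, SIX2, SIX4, EYA3 and EYA4) were taken from the RefSeq table of build GRCh38.p14. The windows of 4 hold 250 bases before and 50 after the annotated start of the gene, whereas that of EYA4 is set on a start 764 bases inside the gene and is not shown. Each window shown is given 5′ to 3′ on the strand of the gene, and has its CpG dinucleotides in capitals. DACH1 lies on chr13:71867155-71867454 (minus strand), SIX4 on chr14:60724302-60724601 (minus strand) and EYA3 on chr1:28088561-28088860 (minus strand).
DACH1: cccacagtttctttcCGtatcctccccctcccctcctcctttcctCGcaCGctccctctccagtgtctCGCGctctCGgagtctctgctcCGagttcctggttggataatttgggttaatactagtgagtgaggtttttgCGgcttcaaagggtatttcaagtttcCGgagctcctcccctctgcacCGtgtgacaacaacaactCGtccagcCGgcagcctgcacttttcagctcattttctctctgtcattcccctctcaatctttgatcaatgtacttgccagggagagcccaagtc
SIX4: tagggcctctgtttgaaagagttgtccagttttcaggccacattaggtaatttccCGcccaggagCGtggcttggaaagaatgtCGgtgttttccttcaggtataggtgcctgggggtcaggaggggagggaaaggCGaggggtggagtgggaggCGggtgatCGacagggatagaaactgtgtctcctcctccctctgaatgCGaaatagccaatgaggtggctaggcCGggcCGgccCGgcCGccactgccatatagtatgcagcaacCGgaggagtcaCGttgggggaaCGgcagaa
EYA3: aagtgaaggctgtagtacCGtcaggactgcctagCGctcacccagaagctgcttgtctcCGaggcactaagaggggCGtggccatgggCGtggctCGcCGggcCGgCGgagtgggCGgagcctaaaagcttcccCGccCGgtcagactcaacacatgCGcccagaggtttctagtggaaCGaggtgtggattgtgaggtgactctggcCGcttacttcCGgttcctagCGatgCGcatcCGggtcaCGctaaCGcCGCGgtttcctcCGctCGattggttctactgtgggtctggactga
The DACH1 window held 12 CpG and 53.0% G or C, that of SIX4 14 CpG and 57.7%, and that of EYA3 25 CpG and 61.7%. The medians over 35116 RefSeq promoter windows of the same length were 14 CpG and 58.7%. Each window was searched on both strands for the GC box GGGCGG, the CCAAT box CCAAT, the TATA box TATAAA, the AP-1 site TGANTCA and the SIX-binding site TCAGGTTTC, whose first bases TCAGGTT were also searched alone and therefore overlap it. None of these motifs was found in the DACH1 window (0 matches of each), which says only that these letters are not in it. The SIX4 window held 1 GC box and 1 CCAAT box, and the EYA3 window 2 GC boxes and 1 CCAAT box. Of all windows, 45.0% held the GC box, 34.6% the CCAAT box, 11.5% the TATA box, 7.7% the AP-1 site, 0.4% the longer SIX-binding site and 3.4% its shorter form.

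Values are log2 RMA values that the authors had set relative to a baseline for each probe set, so that they hold no expression level. A value of 0 does not mean absence, and levels of different genes cannot be ranked. For the same reason, the hepatocyte identity of the cells cannot be checked from marker levels. The median of every array was 0. Across probe sets, r between arrays was 0.406 to 0.67 within a group and -0.273 to 0.068 between groups. These r are of values relative to the baseline, so they cannot be compared with r between expression levels.

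KCNN4, the gene of the silenced channel, did not bear out the label. It had values of -0.05, 0.09 and 0.01 in the silenced arrays, against -0.0062, 0.13 and -0.07 in the control arrays. The groups overlapped, and the difference was -3e-04 (SE 0.069, 95% interval -0.16 to 0.16, limma adjusted p = 0.999). All 3 of its probe sets end in _x_at, a suffix for probes that can match other transcripts. Every direction given here is therefore between the arrays labelled KCa3.1 silenced and the arrays labelled control.

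DACH1 (Entrez gene 1602, chromosome 13, bases 71437966 to 71867204) was the member that stood apart. Its values were 0.78, 0.72 and 0.59 in the silenced-labelled arrays, against -1.35, -1.35 and -1.20 in the control arrays. The groups were far from overlapping, with means of 0.70 ± 0.098 and -1.30 ± 0.090 (SD, n = 3 each). The difference was 2.00 on the log2 scale (SE 0.072), or 3.99-fold higher in the silenced-labelled arrays. In RNA from whole cultures, more cells with the transcript and more transcript per cell cannot be told apart. By signed difference it ranked 5 among the 18132 genes, between A2M with 2.16 and SERPINI1 with 1.98.

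Both DACH1 probe sets showed the difference. The first read 0.91, 0.75 and 0.72 in the silenced-labelled arrays, against -1.18, -1.17 and -0.96 in the control arrays, a difference of 1.90 (SE 0.086). The second read 0.65, 0.68 and 0.46 in the silenced-labelled arrays, against -1.53, -1.54 and -1.43 in the control arrays, a difference of 2.09 (SE 0.078). These differences ranked 23 and 11 of 49293 probe sets. Neither probe set was exactly 0 on any array (0 of 12 values). Of the other 22 probe sets of the 8 genes, 20 were exactly 0 on at least 1 array, as were 80.6% of all probe sets. An exact 0 is a value at the baseline, and ties of this kind can narrow the spread within a group. The 0 of DACH1 lay between the groups, and was not the value of any of the 6 arrays.

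**Figure D1:**
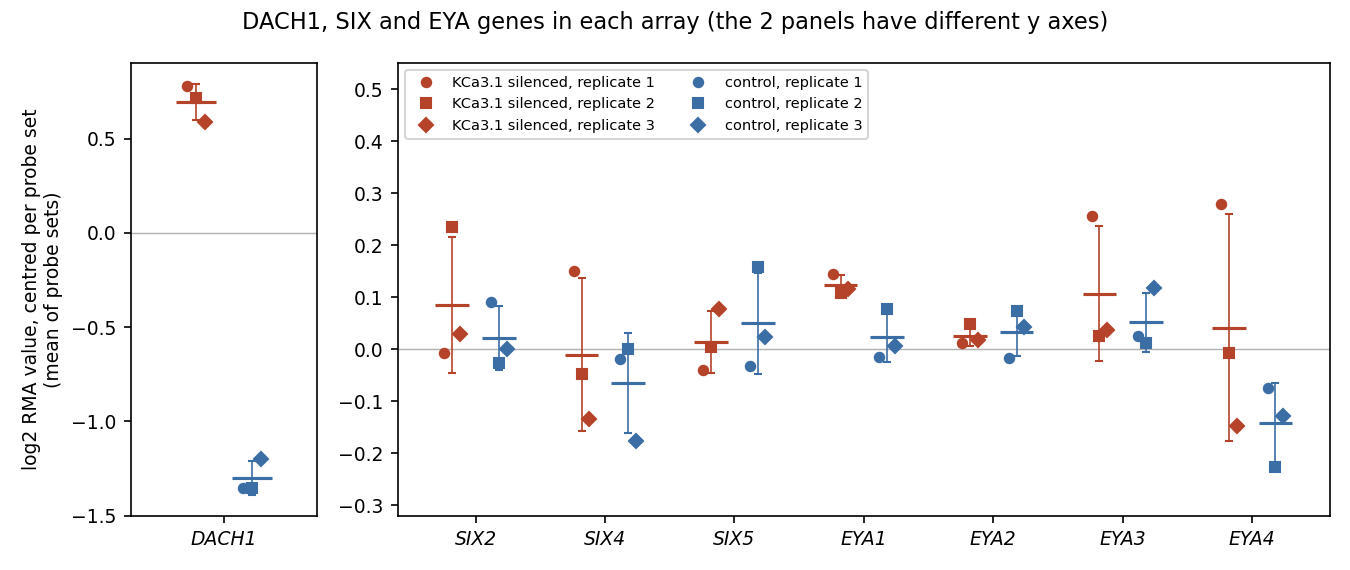
Centred log2 RMA values of the 8 genes in every array (mean of a gene's probe sets), with KCa3.1 silenced left of control. Points are arrays, bars are means and whiskers SD (n = 3). DACH1, on its own axis, lies at 0.59 to 0.78 in silenced-labelled arrays and at -1.35 to -1.20 in control arrays, while the groups of 6 of the other 7 genes overlap.

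Of the SIX-family factors, none approached the difference of DACH1. SIX2, which keeps mouse nephron progenitors in an undifferentiated state, read -0.0082, 0.23 and 0.03 in the silenced-labelled arrays, against 0.09, -0.03 and 0 in the control arrays. The groups overlapped, with a difference of 0.06 (SE 0.075). SIX4, which takes part in mouse muscle and kidney formation, read 0.15, -0.05 and -0.13 in the silenced-labelled arrays, against -0.02, 0 and -0.18 in the control arrays. These groups overlapped too, with a difference of 0.05 (SE 0.084). SIX5, the neighbour of the myotonic dystrophy kinase gene DMPK, read -0.04, 0.0044 and 0.08 in the silenced-labelled arrays, against -0.03, 0.16 and 0.02 in the control arrays. Its difference was -0.04 (SE 0.066), and its 2 probe sets gave -0.07 and -0.0039.

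SIX2 and SIX4 were each measured by 1 probe set, and that of SIX4 ends in _s_at, a suffix for probes shared with other transcripts. Without the second silenced array the difference of SIX2 was -0.01, so its sign rested on that array. Without the first silenced array the difference of SIX4 was -0.03.

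Among the EYA coactivators, EYA1 was the gene whose probe sets disagreed most. EYA1, mutated in branchio-oto-renal syndrome, read 0.14, 0.11 and 0.12 in the silenced-labelled arrays, against -0.02, 0.08 and 0.0070 in the control arrays. The groups did not overlap, with means of 0.12 ± 0.019 and 0.02 ± 0.048 (SD, n = 3 each), but the difference was only 0.10 (SE 0.053). Its most variable probe set read 0.17, 0.33 and 0.23 in the silenced-labelled arrays, against -0.27, 0 and -0.12 in the control arrays. That is a difference of 0.37 (SE 0.085), the largest of the 22 probe sets outside DACH1. Another probe set went the other way, at 0 in all 3 silenced-labelled arrays and at 0.03, 0.12 and 0.14 in the control arrays (difference -0.10, SE 0.062). The third EYA1 probe set had a difference of 0.02 (SE 0.087) and overlapping groups. The value of EYA1 thus depends on the probe set that is read, and was 0.37 with the most variable probe set in place of the mean, 0.05 with the median and 0.20 without the probe set that was at 0 on 3 arrays.

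EYA2, which binds the G protein subunit encoded by GNAZ as well as SIX-family factors, showed next to no difference. It read 0.01, 0.05 and 0.02 in the silenced-labelled arrays, against -0.02, 0.07 and 0.04 in the control arrays. The difference of -0.0064 (SE 0.053) was a mean over 7 probe sets that ran from -0.14 to 0.13. The lowest of these was also the most variable, and it alone gave -0.14 for the gene.

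EYA3 and EYA4 were highest in the first silenced array. EYA3, a further phosphatase coactivator of the family, read 0.26, 0.03 and 0.04 in the silenced-labelled arrays, against 0.03, 0.01 and 0.12 in the control arrays. Its difference was 0.06 (SE 0.074), all 5 probe sets had differences between 0.03 and 0.12, and the largest single value was 0.63 in the first silenced array. EYA4, mutated in an inherited hearing loss with cardiomyopathy, read 0.28, -0.0079 and -0.15 in the silenced-labelled arrays, against -0.07, -0.23 and -0.13 in the control arrays. Its groups overlapped, with means of 0.04 ± 0.22 and -0.14 ± 0.077 (SD, n = 3 each). The difference of 0.18 (SE 0.10) was the largest among the 7 partners, with 0.14, 0.29 and 0.12 for its 3 probe sets.

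The first silenced array was the highest of the 6 arrays in 4 of the 7 partners (SIX4, EYA1, EYA3 and EYA4), against 16% of all genes. Without that array the differences of these 4 were -0.03, 0.09, -0.02 and 0.07, while that of DACH1 was 1.95. The part of that array in the partners' values was not tested further.

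Over the 8 genes, 6 means were higher and 2 lower in the silenced-labelled arrays. One of the 8, DACH1, was past the threshold of the fit over all genes (limma adjusted p under 0.05), where 13.3% of all genes were, and since the contrast chose DACH1 nothing is read from this count. The groups did not overlap in 2 of 8, DACH1 and EYA1, where 29.3% of all genes had groups apart. The 95% intervals of the differences of the other 7 lay between -0.19 and 0.42. The difference of DACH1 lay outside each of them, but DACH1 was chosen for its large difference, so nothing is read from this. The median difference of the 7 was 0.06, against -0.0058 for all genes, and the median size of difference over the 8 was 0.06, against 0.08 over all genes. Of the 24 probe sets, 3 were past the threshold, both of DACH1 and 1 of EYA1. Outside DACH1, 1 of 22 was past it, where 10.7% of all probe sets were. The groups were apart in 6 of 24 probe sets, and in 4 of the 22 outside DACH1, against 26.7% of all.

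**Figure D2:**
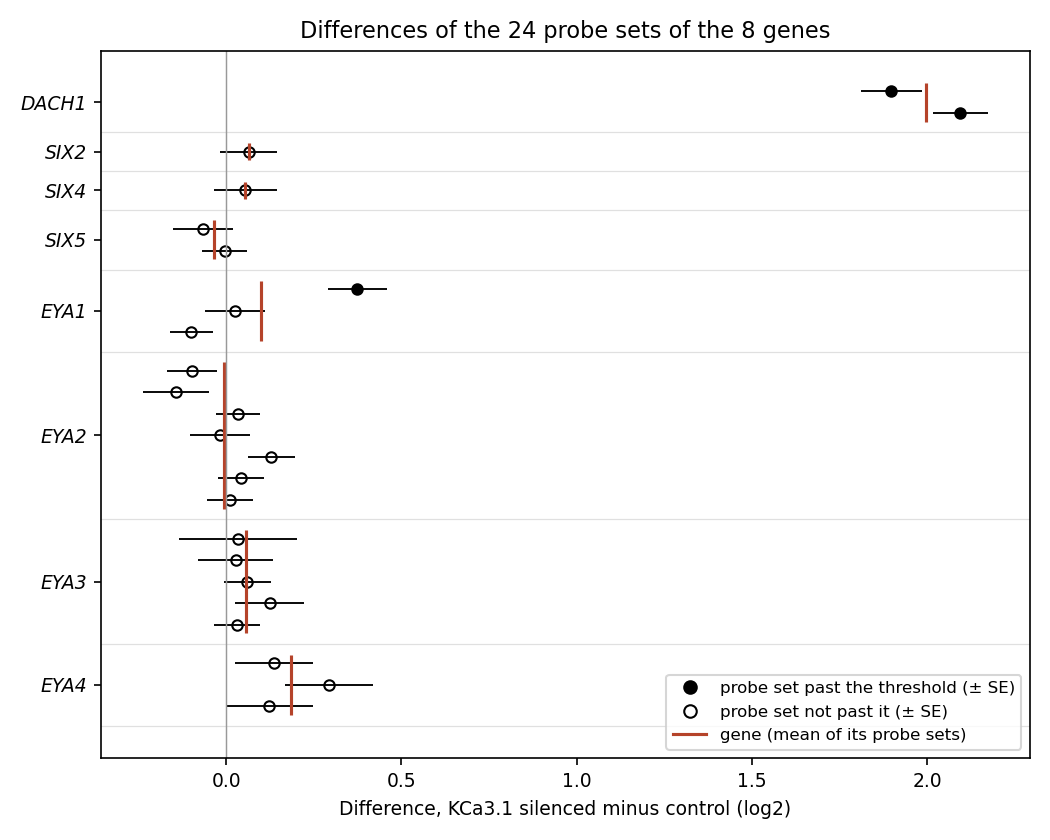
Difference between KCa3.1 silenced and control arrays (log2, silenced minus control) of each of the 24 probe sets, with SE, and of each gene as a red line. The DACH1 probe sets lie at 1.90 and 2.09, and the other 22 lie between -0.14 and 0.37, with the 3 probe sets of EYA1 spread from -0.10 to 0.37.

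The genes whose profile over the 6 arrays lay nearest to DACH1 were CTSE, RELN, SERPINI1, A2M and SPP1. Nearness was the mean absolute distance between 2 genes after each was set relative to its own mean of the 6 arrays, and it uses the contrast that chose DACH1. CTSE, the gene of the protease cathepsin E, had a distance of 0.069 and values of 1.92, 1.98 and 1.84 in the silenced-labelled arrays, against 0, 0.02 and -0.0069 in the control arrays. RELN, the gene of the secreted protein reelin, had a distance of 0.080 with 0.32, 0.27 and 0.22 in the silenced-labelled arrays, against -1.65, -1.58 and -1.47 in the control arrays. SERPINI1 had a distance of 0.095, A2M 0.099 and SPP1 0.10. None of the 7 partners was near, with distances of 0.91 for EYA4 to 1.02 for SIX5. A gene with little difference between the groups lies far from DACH1 by this measure. These distances therefore restate the small differences of the partners.

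**Figure D3:**
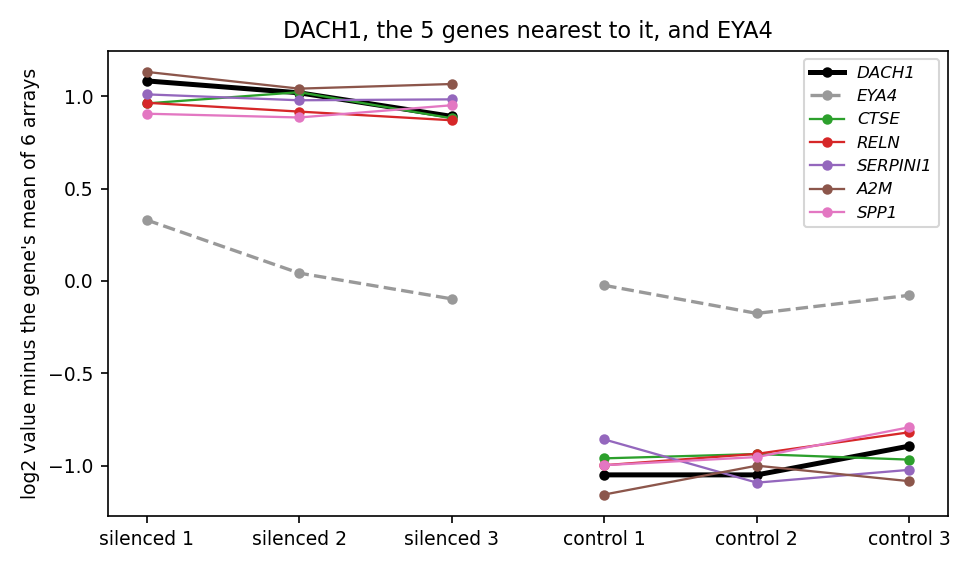
Log2 value minus the gene's own mean of the 6 arrays, for DACH1 (thick line), the 5 genes nearest to it and EYA4 (dashed), by array. The 5 genes follow DACH1 with mean distances of 0.069 to 0.10, while EYA4, the nearest of the partners, lies 0.91 away.

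Other genes of the network were taken from 6 lists, which held relatives with PAX genes, corepressors, binding partners and genes described in the literature as targets. Of 67 genes measured, 7 were higher and 8 lower in the silenced-labelled arrays, and 52 did not pass the test (limma over all genes, adjusted p under 0.05). That is 22.4% of the lists' genes, against 13.3% of all genes.

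The first list held 6 relatives of DACH1 and of the SIX-family factors and 5 PAX genes, which encode paired-domain transcription factors of the same network, and no relative of the EYA genes. None of its 11 genes passed the test (limma, 0 higher and 0 lower, and 0 of 11 at an unadjusted p under 0.05). The relatives included DACH2, the closest relative of DACH1, with a difference of -0.07 (SE 0.058, limma adjusted p = 0.53), SIX3 with 0.18 (SE 0.084, adjusted p = 0.25) and SIX6 with 0.10. The SKI and SKIL genes, whose corepressor products share a domain with DACH1, had -0.10 and 0.10. The 5 PAX genes had differences of -0.13 to -0.0079. The median of the list was -0.04, and that of the size of difference 0.07, against 0.08 over all genes. Of 10 genes whose proteins bind DACH1, 0 passed limma's test, with 1 higher and 1 lower at an unadjusted p under 0.05, and differences ran from -0.13 for JUN to 0.16 for the acetyltransferase gene EP300.

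The TLE genes, which encode Groucho-type corepressors and their relatives, some of which bind SIX-family factors, split in direction. TLE1 fell, with values of 0.03, -0.11 and 0 in the silenced-labelled arrays, against 0.39, 0.49 and 0.43 in the control arrays (difference -0.46, SE 0.060, limma adjusted p = 0.0012). TLE3 rose, with 0.0087, -0.02 and 0.06 in the silenced-labelled arrays, against -0.50, -0.28 and -0.40 in the control arrays (0.41, SE 0.067, limma adjusted p = 0.0038). TLE4 rose by 0.34 (SE 0.065, limma adjusted p = 0.0093), and the groups of all 3 genes were apart. TLE2, TLE5 and TLE6 did not pass, with 0.04, -0.17 and -0.22, and the list's median difference was -0.06. Of the 6 TLE genes 50% passed, against 13.3% of all genes. The call of TLE3 was lost without probe sets ending in _s_at or _x_at (0.26, limma adjusted p = 0.064). That of TLE4 was lost with its most variable probe set (0.29, limma adjusted p = 0.16). It was also lost without IDs that carry _a, _s or _x, which gave the same difference (limma adjusted p = 0.23).

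Of 13 genes described as repressed by DACH1, 2 were lower, 0 higher and 11 did not pass (limma, with 4 lower and 0 higher at an unadjusted p under 0.05), which is 15.4% against 13.3% of all genes. CCND1, which encodes cyclin D1, read -0.02, -0.05 and 0.0048 in the silenced-labelled arrays, against 0.34, 0.48 and 0.48 in the control arrays (difference -0.46, SE 0.060, limma adjusted p = 0.0011). CXCL8, the gene of interleukin 8, read -0.0080, -0.03 and 0.03 in the silenced-labelled arrays, against 0.37, 0.45 and 0.52 in the control arrays. The groups of each gene were well apart, and the log2 difference of CXCL8 was -0.45 (SE 0.059, limma adjusted p = 0.0012). It was -0.79 with the most variable probe set, but -0.31 with the median over probe sets (adjusted p = 0.0161) and -0.30 without probe sets ending in _s_at or _x_at (adjusted p = 0.0201). SNAI1, a repressor of E-cadherin, did not pass (-0.07, SE 0.051, limma adjusted p = 0.47). The differences of the other genes ran from -0.23 for KLF4 to 0.13 for NANOG, and the list's median was -0.07.

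Of 16 genes described as targets of SIX-family factors, 5 were lower, 3 higher and 8 not past the test, with a median of -0.02. That is 50% past the test, against 13.3% of all genes. SALL1, a zinc finger gene of kidney development, rose most, with 0.44, 0.46 and 0.48 in the silenced-labelled arrays, against -0.37, -0.29 and -0.25 in the control arrays (difference 0.76, SE 0.055, limma adjusted p = 4.5e-05, and 0.73 to 1.21 over its alternatives). CDH1, the gene of E-cadherin, fell most, with -0.67, -0.66 and -0.77 in the silenced-labelled arrays, against -0.04, 0.13 and 0 in the control arrays (difference -0.73, SE 0.065, limma adjusted p = 0.00015). The groups of both genes were far apart. For SALL1 the median over its 3 probe sets gave 0.99 and the most variable 1.21. The remaining one thus lay well below the mean of 0.76, and the rise rested mainly on the others. None of the alternatives read it alone, so their range does not cover it. CCND1 stands on this list too, and CCNA1, the gene of cyclin A1, was lower (difference -0.31, SE 0.069, limma adjusted p = 0.017), a call lost without silenced replicate 2 or 3 or control replicate 2 or 3 (differences -0.27, -0.31, -0.30 and -0.27). The 4 other genes past the test are named after their values were seen. MYC and IGFBP5 each had a difference of 0.28, and the ezrin gene EZR and the chloride cotransporter gene SLC12A2 had -0.27 and -0.30. Each of these 4 calls was lost in at least 5 of 13 or 14 alternatives, and SLC12A2 had 0.13 (adjusted p = 0.27) without probe sets ending in _s_at or _x_at.

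Of 12 partners of the EYA phosphatases, 1 was lower, 2 were higher and 9 were not past the test, with a median of 0.02. That is 25% past the test, against 13.3% of all genes. GNAZ, which encodes a G protein subunit bound by EYA2, rose, with 0.26, 0.19 and 0.18 in the silenced-labelled arrays, against -0.20, -0.21 and -0.25 in the control arrays. Its groups were apart, with a difference of 0.43 (SE 0.053, limma adjusted p = 0.00086), and 0.40 to 0.75 over its alternatives. The 0.75 is that of the more variable of its 2 probe sets. The other thus lay well below the mean of 0.43, and the rise rested mainly on the more variable one. None of the alternatives read the other alone, so their range does not cover it. SMARCC1, a subunit of the BAF chromatin remodeller, had a difference of 0.24 (limma adjusted p = 0.030), a call lost in 7 of 14 alternatives. H2AX, the histone whose terminal tyrosine is a substrate of EYA phosphatases, had -0.19 (limma adjusted p = 0.049), a call lost in 11 of 13. Among the 6 alternatives that leave out an array, H2AX kept its call without control replicate 1 alone and SMARCC1 without control replicate 3 alone.

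**Figure D4:**
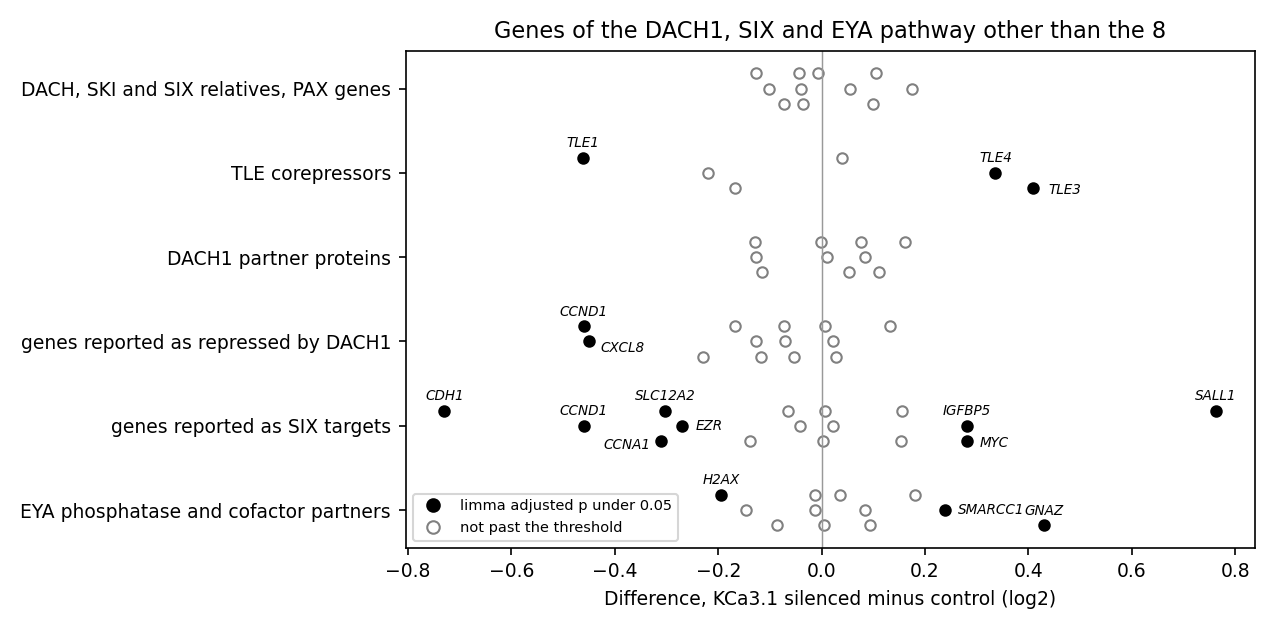
Difference between KCa3.1 silenced and control arrays (log2, silenced minus control) of the genes of the 6 lists, 1 row a list. Filled points passed limma's test over all genes and are named. The relatives with PAX genes and the DACH1 partners hold no filled point, and the filled points run from -0.73 for CDH1 to 0.76 for SALL1.

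Markers of cell types moved as follows beside these genes. Of 8 hepatocyte markers 5 were higher and 0 lower (limma, with 6 and 1 at an unadjusted p under 0.05), with a median difference of 0.29, led by APOA1 with 1.14 (limma adjusted p = 3e-05) and AFP with 0.70. The call of FGB (0.20, limma adjusted p = 0.0419) was lost in 8 of 14 alternatives. That of APOB was lost in 1 of 14, which kept only IDs without _a, _s or _x (0.21, limma adjusted p = 0.303). Of 7 fibroblast markers 1 was higher, COL1A2 with 0.55, and of 5 endothelial and 5 leukocyte markers none passed limma's test (0 of each, with 0 endothelial and 1 leukocyte marker, lower, at an unadjusted p under 0.05). Past the test were 62.5% of the hepatocyte and 14.3% of the fibroblast markers, against 13.3% of all genes. The part of these markers in the values of DACH1 and its network was not tested.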

How the data were processed

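Total RNA of 6 Huh7 samples was labelled with biotin and hybridised to 1-colour Affymetrix arrays, per the labels' protocols. Per the submitters' processing notes, the authors used RMA (background correction, quantile normalisation, summary of probes), with no version named. The deposited log2 values had been set relative to a baseline for each probe set. A base of 2 is what RMA usually gives and is assumed here. The centring was found from the values: 80.6% of probe sets were exactly 0 on at least 1 array, and the median of the 6 arrays was not 0 in 88.3%, so the baseline includes arrays not analysed here. The centring cancels in differences between groups. Depth has no meaning for arrays, and their number, 3 a group, limits the precision.

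Of 49395 probe sets, 102 control probe sets were left out. Of the 49293 tested, 44988 carried 1 symbol in GEO's platform annotation, 1832 several and 2473 none. A gene's value was averaged over its probe sets that carry a single symbol, for 18132 genes. Silenced minus control differences were fitted with limma 3.58.1 in R 4.3.3 (lmFit, eBayes, group as the term, no block) on all genes or all probe sets, with Benjamini-Hochberg adjustment and a threshold of 0.05. All adjusted p-values are from limma. The fit was tested on simulated data. Genes named are the 8, KCNN4, up to 4 genes of each list with the largest differences past the threshold, CCND1, SNAI1, CDH1, and the 5 nearest to DACH1. Other genes named with values (family members, ends of ranges, further genes past the test, and markers whose call was lost) were chosen after their values were seen. The 8 genes, the lists and the rule were chosen with earlier results of these data known. Alternatives changed the probe sets averaged, the normalisation, a filter on exact zeros, the variance prior, the replicate block and each array. Listed genes without a symbol in the annotation are not analysed here.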

Additional observations from a re-analysis of the deposited data

How the results depend on the processing

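The difference of DACH1, on which that gene was chosen, was 1.92 to 2.09 on the log2 scale over the 13 alternatives that gave it a value, the highest with its most variable probe set. Of the 13, 5 return the same value by construction (the median of 2 probe sets, no probe set to remove, a balanced block, another variance prior) and say nothing of its stability. Without IDs that carry _a, _s or _x, DACH1 has no probe set, so 0 of the members there passed the test. This filter goes by ID suffix alone and is no measure of specificity. With the most variable probe set 2 members passed, when 1 partner, EYA1, passed beside DACH1. That setting tends to pick the probe set with the larger group difference, so nothing is read from the added call. Without IDs that carry _a, _s or _x, 565 of 8354 genes were called against 2418 of 18132. Of the listed genes 2 were, 1 higher and 1 lower. Leaving out 1 array gave 1641 to 2289 genes and 3252 to 4592 probe sets against 5261. The lower counts of probe sets were 3479, 3358 and 3252 without silenced replicates 1, 2 and 3 and 3444 without control replicate 3. Listed genes past the test numbered 8 to 13 against 15, with 8 without silenced replicate 2 or 3. Of these 4 to 6 were higher and 4 to 8 lower. Fewer samples enter these fits. Same-numbered arrays deviated from their group means with correlations of -0.036, -0.058 and -0.029, so they shared no deviation across all probe sets. Whether same-numbered samples were handled together is not stated in the labels, and these correlations cannot decide it. With the replicate block 2065 genes were called and 5 listed genes were lower against 8. SLC12A2 turned to 0.13 without probe sets ending in _s_at or _x_at, an alternative chosen after seeing the data. With its most variable probe set it had -0.58. Its probe sets thus disagreed in direction, and the reason for that was not tested. Signal over background is unknown, so dim probe sets could not be left out.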
